A study of Mus with 12 samples.

Results

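The genes described here are 10 neutrophil granule and secreted protein genes, Lcn2, Ltf, Camp, Ngp, Mmp8, Mmp9, Cd177, Chil3, Padi4 and Adam8, chosen by gene name from a blood expression table of 25247 genes. All 10 were found in the table. All 10 were also among the 5527 genes that passed the filter on low values, an FPKM of 1 or more in 3 or more of the 12 libraries. Padi4 passed it only through the libraries of the DNCB group described below. FPKM counts the fragments per gene kilobase for every 1e6 fragments of a library, so it can be compared between genes of different length.

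Blood was taken on day 30 from female BALB/c mice that had been 6 weeks old when purchased, with 1 library per mouse and 3 mice in each of 4 groups. The Solvent mice received only the acetone and olive oil vehicle on shaved dorsal skin. The DNCB mice were sensitised with 1% DNCB, the contact sensitiser dinitrochlorobenzene, and then challenged repeatedly with 0.5% DNCB, a model of atopic dermatitis-like skin inflammation. Both other groups received the same DNCB course plus human umbilical cord mesenchymal stem cells (MSC) at 2e6 cells per dose. The scMSC mice had 100 µL of cell solution injected under the dorsal skin, while the scivMSC mice had 50 µL under the skin and 50 µL into the tail vein. No group received the culture solution without cells, so an effect of the cells and one of the injection cannot be told apart, and the cells came from another species than the host.

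Neutrophils store antimicrobial and matrix-degrading proteins in granules that are filled in a fixed order while the cell matures in the bone marrow. Primary granule genes are transcribed in promyelocytes, genes of the specific (secondary) granules in myelocytes and metamyelocytes, and genes of gelatinase granules, secretory vesicles and the cell surface later. Because transcription of the specific granule genes is largely shut down in the mature cell, their transcripts in blood are known as markers of less mature neutrophils, while Mmp9, Csf3r and chemokine receptor transcripts persist in mature ones.

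The 10 genes differ in their roles. Ngp (neutrophilic granule protein) and Camp (the precursor of the cathelicidin peptide CRAMP) belong to the cathelin-like family, whereas Ltf (lactoferrin, which binds iron) and Lcn2 (lipocalin 2, which binds bacterial siderophores) withhold iron from microbes. These 4 are transcribed in myelocytes and are called the early genes below. Mmp8 (neutrophil collagenase), Mmp9 (gelatinase B) and Adam8 (a membrane metalloprotease that sheds surface proteins) are proteases. Cd177 is a neutrophil surface glycoprotein also found in granule membranes. Chil3 (Ym1) is a secreted chitinase-like lectin that monocytes and macrophages can make as well, and Padi4 converts arginine to citrulline in histones during the release of extracellular traps.

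The summed estimated counts were 52.2e6 to 65.1e6 per library, at about 4 counts per fragment. Haemoglobin transcripts took 91.3% to 95.6% of summed FPKM, highest in scivMSC replicate 2, which also had the fewest genes with counts (11806, against up to 17350). Scaling factors by the trimmed mean of M values (TMM), which set the median gene about equal between libraries, ran from 0.330 in that library to 1.87. Under total-count scaling, the scale of FPKM and of every value below unless TMM is named, the median of all 5527 genes was -1.47 (log2) in scivMSC and -0.59 in scMSC relative to Solvent, against 0.06 in DNCB. The smallest count of any of the 10 genes in any library was 50, for Padi4 in scivMSC replicate 2, above the 12 counts taken as the floor. A set of 10 other neutrophil markers that includes Csf3r summed to 210 to 434 FPKM in Solvent, 6398 to 10084 in DNCB, 521 to 672 in scMSC and 203 to 617 in scivMSC. Monocyte markers (7 genes) summed to 10.4 to 26.2, 23.3 to 42.8, 12.7 to 13.9 and 9.08 to 10.2 in the same order, and epithelial markers (4 genes) to at most 1.19 in any library. The monocyte markers did not move together. In scivMSC F13a1 made up 7.29 of their mean sum of 9.57, while Csf1r was at 0.55, against 3.12 in Solvent. Ly6c2, Ccr2, Csf1r and F13a1 had higher means in DNCB than in Solvent, and Cx3cr1, Nr4a1 and Ms4a4c lower ones. Lymphocyte marker sums were highest in Solvent. B cell markers (6 genes) summed to 40.5 to 128, 11.3 to 32.3, 12.4 to 17.1 and 3.14 to 7.63 in the same order, T cell markers (7 genes) to 43.0 to 69.8, 16.5 to 24.7, 22.7 to 31.7 and 5.57 to 15, and NK cell markers (5 genes) to 25.5 to 31.1, 8.82 to 12.5, 4.86 to 13.5 and 4.3 to 12.1. Eosinophil and basophil markers (7 genes) summed to 1.41 to 2.05, 6.2 to 7.35, 2.33 to 5.36 and 1.59 to 5.91, and platelet markers (7 genes) to 369 to 586, 579 to 781, 698 to 897 and 719 to 833. The eosinophil and basophil markers did not move together either. Mean Prg2 was 0.298 FPKM in DNCB, 1.44 in scMSC and 1.92 in scivMSC, while mean Mcpt8 was 3.49, 1.03 and 0.442. In bulk blood, fewer neutrophils and less RNA of these genes per neutrophil cannot be told apart, and what part neutrophil or other cell content has in the differences below was not tested.

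The first comparison asked what the DNCB course did to these transcripts in blood. All 10 genes rose in DNCB relative to Solvent, by 11.3-fold for Adam8 to 109-fold for Ngp. Of all tested genes, 15.6% were called higher, which means an adjusted p under 0.05 by edgeR's quasi-likelihood test and a change of over 2-fold. The median log2 fold change of the 10 was 5.50, against 0.06 for all tested genes, and for all 10 the DNCB libraries lay above every Solvent library, as they did for 25.0% of tested genes.

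**Figure D1:**
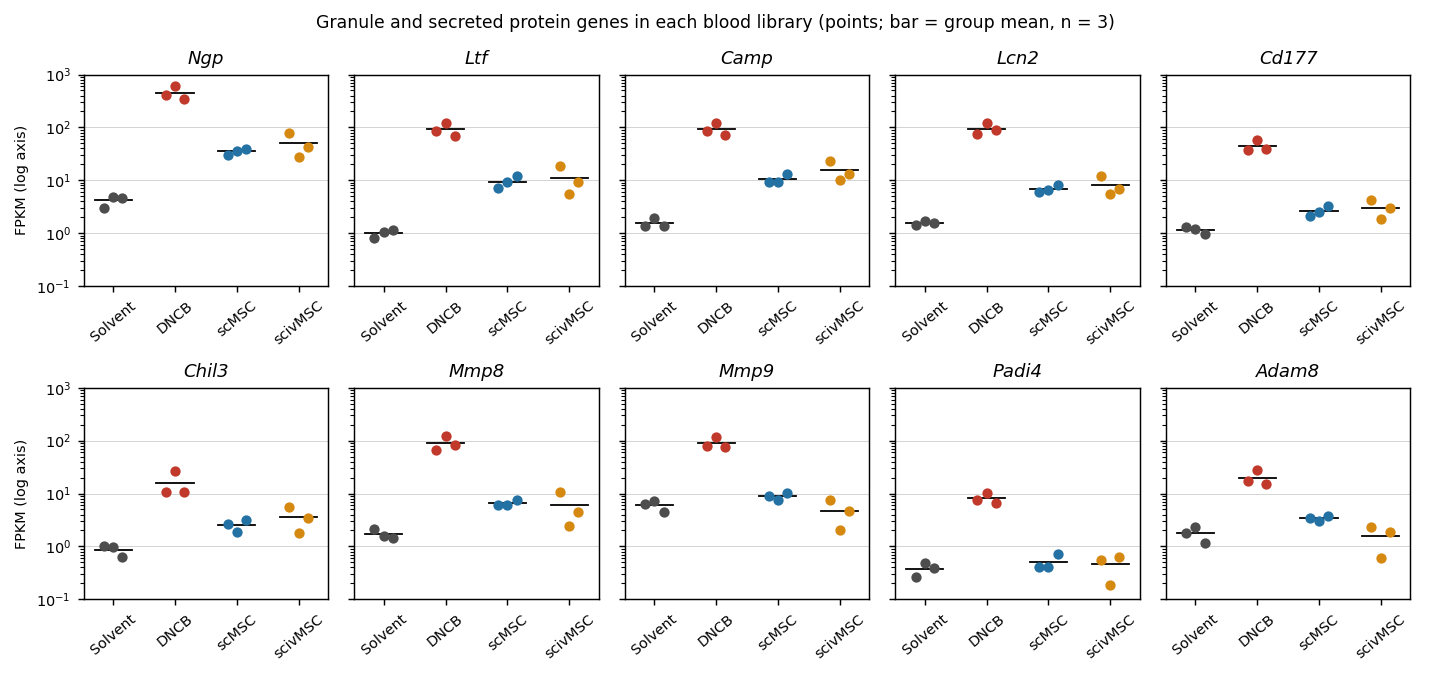
FPKM (log axis) of the 10 granule and secreted protein genes in each of the 12 libraries, 1 panel per gene, with points for libraries and a line at each group mean. In every panel the 3 DNCB points sit above all others, and Ngp reaches the highest level, 602 FPKM in DNCB replicate 2.

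Ngp was at 2.97, 4.90 and 4.61 FPKM in Solvent (replicates 1, 2 and 3, the order used throughout) and at 403, 602 and 349.7 in DNCB. The groups were far apart, and the log2 fold change was 6.76 (SE 0.42, edgeR adjusted p = 4.18e-08), the smallest p of all tested genes. Camp, its cathelin-like relative, was at 1.35, 1.90 and 1.36 FPKM in Solvent and 86.9, 122 and 70.8 in DNCB, a log2 fold change of 5.92 (SE 0.43). The iron-binding pair moved by similar amounts. Ltf was at 0.809, 1.03 and 1.16 FPKM in Solvent and 85.0, 122 and 67.9 in DNCB (log2 fold change 6.50, SE 0.46). Lcn2 was at 1.42, 1.70 and 1.56 FPKM in Solvent, while DNCB had 74.3, 122 and 88.9 (log2 fold change 5.92, SE 0.38). For these 4 early genes the Solvent libraries were all at or under 4.90 FPKM and the DNCB libraries all at or above 67.9.

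Among the proteases, Mmp8 was at 2.10, 1.60 and 1.45 FPKM in Solvent and 67.6, 122 and 82.5 in DNCB, a log2 fold change of 5.72 (SE 0.50). Mmp9 started from a higher level, 6.37, 7.24 and 4.41 FPKM, and reached 78.8, 116 and 76.5, so that its log2 fold change was smaller, at 3.92 (SE 0.41). Adam8 was at 1.82, 2.29 and 1.17 FPKM in Solvent, while DNCB had 17.1, 27.5 and 15.4 (log2 fold change 3.50, SE 0.44). In DNCB the levels of the collagenase and the gelatinase thus overlapped, although in Solvent no Mmp8 value reached the lowest Mmp9 value.

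Cd177 was at 1.30, 1.21 and 0.976 FPKM in Solvent and 37.0, 58.6 and 39.1 in DNCB (log2 fold change 5.27, SE 0.39). Chil3 was at 1.01, 0.977 and 0.626 FPKM in Solvent, while DNCB had 10.5, 26.2 and 10.7 (log2 fold change 4.18, SE 0.51), with DNCB replicate 2 well above both other DNCB libraries. Padi4, the lowest of the 10, was at 0.263, 0.481 and 0.384 FPKM in Solvent, while DNCB had 7.50, 10.3 and 6.55 (log2 fold change 4.42, SE 0.48). Outside DNCB it was at most at 0.710 FPKM, so it passed the filter only through the group where it was high. Its calls here and in both MSC groups against DNCB held in a fit without the filter. DNCB replicate 2 was the highest DNCB library for 10 of 10 genes, and it was also the DNCB library with the lowest haemoglobin share. Adjusted p-values over the 10 genes ran from 4.18e-08 to 3.57e-05, and all 10 calls held without any single library. All 10 also passed the F test over the 4 groups, as did 72.3% of tested genes. The 10 other neutrophil markers were all called higher in DNCB as well, with a median of 4.88.

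Both MSC groups were then compared with the DNCB group, with which they share the same 3 DNCB libraries. All 10 genes fell in scMSC, where 24.9% of tested genes were called lower, and all 10 fell in scivMSC, where 62.0% were. Against DNCB, the scMSC levels were 5.94-fold lower for Adam8 to 17.3-fold lower for Cd177, and the scivMSC levels 4.33-fold lower for Chil3 to 19.0-fold lower for Mmp9. The median of the 10 was -3.52 in scMSC, with all tested genes at -0.63, and -3.60 in scivMSC, with all tested genes at -1.53. Under TMM scaling 12.3% of tested genes were lower and 8.74% higher in scMSC (1.27% higher under total-count scaling), and 18.9% lower and 20.6% higher in scivMSC (1.43% under total-count scaling). The 10 genes' medians were then -2.80 and -2.05, with all 10 lower in scMSC and 9 in scivMSC. The gene without a call then was Chil3, at -0.53 (adjusted p = 0.108). The 10 other neutrophil markers fell in both groups too, 10 of 10 in each under total-count scaling, with medians of -3.69 and -4.27.

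Ngp was at 30.7, 36.3 and 39.8 FPKM in scMSC and 77.7, 28.0 and 43.2 in scivMSC. Every one of these lay under the lowest DNCB library, with log2 fold changes of -3.68 (SE 0.36) and -3.19 (SE 0.35). Camp was at 9.38, 9.14 and 13.3 in scMSC and 23.5, 10.2 and 13.2 in scivMSC. Ltf was at 7.22, 9.30 and 11.9 in scMSC, compared with 18.3, 5.57 and 9.32 in scivMSC. Lcn2 was at 5.87, 6.47 and 8.25 in scMSC, compared with 12.2, 5.44 and 6.71 in scivMSC. For these 3 genes the log2 fold changes against DNCB were -3.15, -3.28 and -3.80 in scMSC and -2.58, -3.05 and -3.55 in scivMSC, with no overlap with DNCB. For all 10 genes both MSC groups lay below every DNCB library, as did 49.8% of tested genes in scMSC and 67.9% in scivMSC. In all 4 early genes scMSC replicate 3 was the highest scMSC library and scivMSC replicate 1 was the highest scivMSC library.

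The proteases fell in both groups as well. Mmp9 was at 9.0, 7.50 and 10.2 FPKM in scMSC and 7.52, 2.04 and 4.74 in scivMSC, log2 fold changes of -3.36 (SE 0.40) and -4.25 (SE 0.41). Mmp8 was at 6.08, 6.08 and 7.52 FPKM in scMSC, compared with 10.9, 2.44 and 4.51 in scivMSC (log2 fold changes -3.80 and -3.93). Adam8 was at 3.46, 3.01 and 3.68 FPKM in scMSC, compared with 2.29, 0.616 and 1.86 in scivMSC (-2.57 and -3.65). These values were likewise all under the DNCB range.

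Cd177 was at 2.07, 2.53 and 3.26 FPKM in scMSC and 4.23, 1.84 and 3.01 in scivMSC, and its log2 fold change of -4.11 in scMSC was the most negative of the 10. Padi4 was at 0.399, 0.400 and 0.710 FPKM in scMSC, compared with 0.550, 0.183 and 0.635 in scivMSC (log2 fold changes -4.01 and -4.14). Chil3, the lectin, fell least in scivMSC, where it was at 5.61, 1.83 and 3.52 FPKM against 2.68, 1.90 and 3.18 in scMSC (log2 fold changes -2.11 and -2.62). The scMSC replicate 3 library was the highest of its group for 10 of 10 genes and scivMSC replicate 2 the lowest of its group for 10 of 10, and the latter had the highest haemoglobin share of all libraries. Adjusted p-values over the 10 genes were 5.86e-06 to 0.000991 in scMSC and 2.57e-06 to 0.000871 in scivMSC (edgeR), and the calls of all 10 genes in both comparisons held without any single library.

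**Figure D2:**
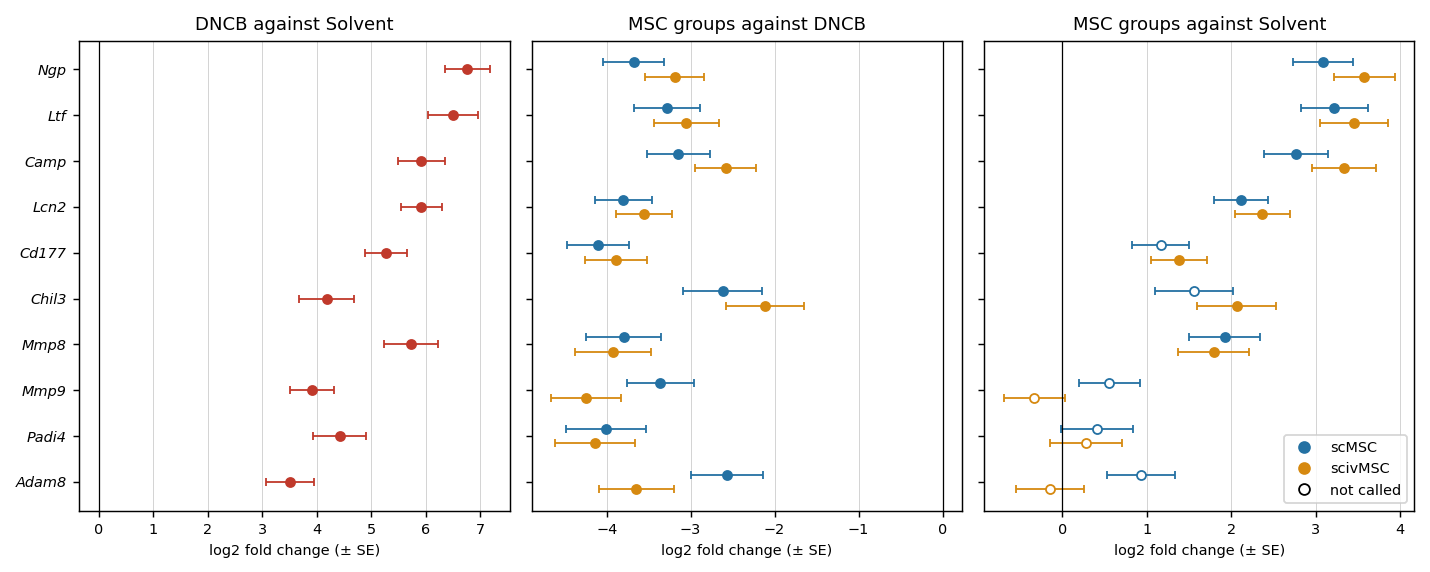
Log2 fold change (x axis, points) with its standard error (bars) for each of the 10 genes (rows), total-count scaling, in 3 panels, DNCB against Solvent, both MSC groups against DNCB and both MSC groups against Solvent, with open points for genes that were not called. The genes sit at 3.50 to 6.76 in the left panel, at -4.25 to -2.11 in the middle panel, and spread from -0.33 to 3.57 in the right panel.

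Set against Solvent, the MSC groups did not have all 10 genes at the vehicle level. In scMSC, 5 of the 10 were called higher (Ltf, Ngp, Camp, Lcn2 and Mmp8), while 0.326% of tested genes were, 18 in all, so these 5 were among those 18. That share depended on single libraries and on the fit. Of all tested genes, 4 to 6 were called higher without any one of the Solvent or scMSC libraries, 9 without DNCB replicate 1, 86 without scivMSC replicate 1, 112 without scivMSC replicate 2 and 133 with only these 2 groups in the fit, while 3 to 7 of the 10 genes were. In scivMSC, 7 of the 10 were called higher (the same 5 with Chil3 and Cd177), while 2.59% of tested genes were, 143 in all. The medians of the 10 were 1.74 and 1.93, while those of all tested genes were -0.59 and -1.47. In scMSC 9 of the 10 genes had every library above all Solvent libraries, as did 7.00% of tested genes, and in scivMSC 7 did, as did 6.10%. Of the 10 other neutrophil markers, 2 were called higher in scMSC (median 1.06), and 2 higher and 1 lower in scivMSC (median 0.12), where 59.2% of tested genes were lower. Yet all 10 of these markers had every scMSC library above all Solvent libraries, and 2 of them had every scivMSC library above. Under TMM scaling 10 of these 10 markers were called higher in scMSC (median 1.59, 7.29% of tested genes higher). In scivMSC 8 were, with 0 lower (median 1.51, 22.4% of tested genes higher and 13.4% lower).

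The early genes were furthest above Solvent in both groups. Ltf was 9.31-fold higher in scMSC (log2 fold change 3.22, SE 0.39, adjusted p = 0.000768) and 10.9-fold higher in scivMSC (3.45, SE 0.40, adjusted p = 9.59e-05). Ngp was 8.49-fold higher in scMSC (3.09, SE 0.35, adjusted p = 0.000634) and 11.9-fold higher in scivMSC (3.57, SE 0.36, adjusted p = 5.27e-05). Camp was 6.80-fold and 10.1-fold higher, and Lcn2 4.34-fold and 5.17-fold. By p-value, Ngp, Ltf, Camp and Lcn2 ranked 1, 2, 3 and 4 of the 5527 tested genes in scMSC against Solvent. Their lowest MSC library was 28.0 FPKM for Ngp, 9.14 for Camp, 5.57 for Ltf and 5.44 for Lcn2, in each case above the highest Solvent library.

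Mmp8 was 3.78-fold higher in scMSC (adjusted p = 0.0431) and 3.46-fold higher in scivMSC (adjusted p = 0.00172). Its call in scMSC was lost when any of 9 of the 12 libraries was omitted (edgeR adjusted p = 0.0506 to 0.203), with the log2 fold change then at 1.81 to 2.09. The Lcn2 call in scMSC was lost without Solvent replicate 1 (2.05, adjusted p = 0.0509), where 3 of the 10 genes were called (Ltf, Ngp and Camp). Chil3 and Cd177 did not pass in scMSC, at 1.56 (SE 0.46) and 1.16 (SE 0.33) with an adjusted p of 0.0953 for both, although the libraries of both genes lay above all Solvent libraries. In scivMSC they were 4.18-fold and 2.60-fold higher, but with limma on log2(FPKM + 1) Cd177 stayed under 2-fold there, at 0.86 (adjusted p = 0.00824), which left 6 calls.

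Mmp9, Adam8 and Padi4 were called against Solvent in neither MSC group. In scMSC their log2 fold changes were 0.55 (SE 0.36), 0.93 (SE 0.41) and 0.41 (SE 0.43). In scivMSC they were -0.33 (SE 0.36), -0.15 (SE 0.40) and 0.28 (SE 0.43), and the values for Mmp9 and Adam8 turned positive under TMM scaling. Their libraries overlapped with Solvent in scivMSC, whereas in scMSC those of Mmp9 and Adam8 lay above all Solvent libraries. Adjusted p-values of these 3 genes were 0.156 to 0.494 in scMSC and 0.425 to 0.755 in scivMSC, which does not show that they were at the Solvent level. These calls depended on the scaling. Under TMM, Mmp9 and Adam8 were called higher in scMSC (1.06 and 1.45) and Adam8 and Padi4 in scivMSC (1.18 and 1.59), while Mmp9 in scivMSC stayed under 2-fold at 0.98 (adjusted p = 0.00415). In total 9 of the 10 genes were then called higher in scMSC, where 7.29% of tested genes were, and 9 in scivMSC, where 22.4% were. Ltf, Ngp and Camp had the 3 largest changes in both groups under either scaling.

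**Figure D3:**
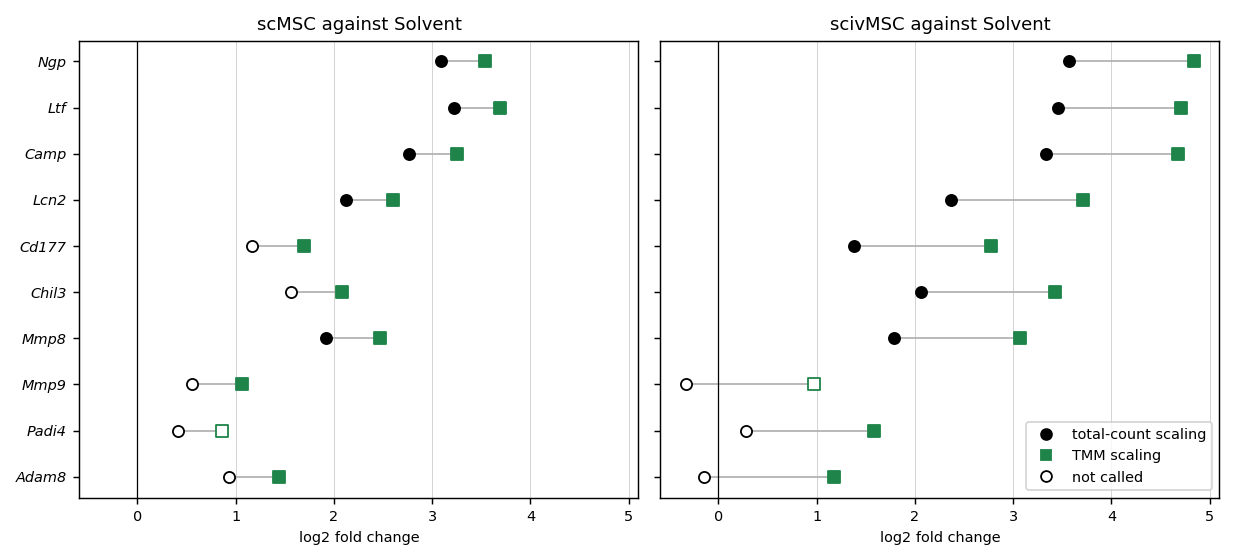
Log2 fold change (x axis) of each of the 10 genes (rows) in scMSC and scivMSC against Solvent, with circles for total-count scaling, squares for TMM scaling and open symbols where the gene was not called. Every square lies to the right of its circle, by more in scivMSC, as for Adam8 there, from -0.15 to 1.18.

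The injection schemes were compared directly, scivMSC with scMSC. The scivMSC mice had 50 µL under the skin and the scMSC mice 100 µL. Effects of the vein route and of the smaller subcutaneous dose thus cannot be told apart. None of the 10 genes was called under total-count scaling by edgeR, 2 had an unadjusted p under 0.05 (Mmp9 and Adam8, against 46.0% of tested genes), and 30.8% of tested genes were called, nearly all lower (30.4%). The count over all genes, 1701, depended on single libraries and on the fit. It was 512 without scMSC replicate 1, 730 without scMSC replicate 3, 805 without scivMSC replicate 2, 736 without scivMSC replicate 3, 2944 without scivMSC replicate 1 and 4 with only these 2 groups in the fit, while 0 of the 10 genes were called in these fits, except 2 (Mmp9 and Adam8, lower) without scivMSC replicate 1. The median of the 10 was 0.23, with all tested genes at -0.87. Adam8 had mean levels of 3.39 ± 0.344 FPKM in scMSC and 1.59 ± 0.869 in scivMSC (each with its SD, n = 3) and a log2 difference of -1.08 (SE 0.41, adjusted p = 0.0520), and was the only one of the 10 whose groups did not overlap (46.7% of tested genes were lower without overlap). Mmp9 was at 8.88 ± 1.33 and 4.77 ± 2.74 FPKM, at -0.89 (SE 0.36, adjusted p = 0.0701). Values for the early genes were positive, with Camp at 0.57 (SE 0.35, adjusted p = 0.207), Ngp at 0.49 (SE 0.33), Lcn2 at 0.25 (SE 0.30) and Ltf at 0.23 (SE 0.36), though Lcn2 and Ltf turned negative without scivMSC replicate 1. Under TMM scaling 6 of the 10 were called higher in scivMSC, as were 13.1% of tested genes: Camp (1.43), Chil3 (1.34), Ngp (1.30), Lcn2 (1.11), Cd177 (1.07) and Ltf (1.01). DESeq2, with its own size factors, called 6 as well, and 815 of the 5527 tested genes higher. Mmp8 and Padi4 changed sign between the scalings, from -0.13 and -0.13 to 0.61 and 0.73, and neither was called by edgeR.

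Ratios between genes of the same library hardly depend on how libraries are scaled, so the balance of the genes within a library was also computed. As a description with no test, the mean log2(FPKM + 0.1) of the 4 early genes minus that of Mmp8, Mmp9, Padi4 and Adam8 was -0.17, 0.06 and 0.44 in Solvent and 2.08, 2.02 and 1.96 in DNCB. It was 1.75, 2.04 and 1.95 in scMSC and 2.91, 3.25 and 2.54 in scivMSC. The early genes thus stood about level with the others in Solvent, clearly above them in DNCB and scMSC, whose libraries overlapped, and furthest above in scivMSC, whose libraries overlapped with no other group. Group means were 0.11 ± 0.31, 2.02 ± 0.06, 1.91 ± 0.15 and 2.90 ± 0.36 (SD, n = 3) in the same order.

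**Figure D4:**
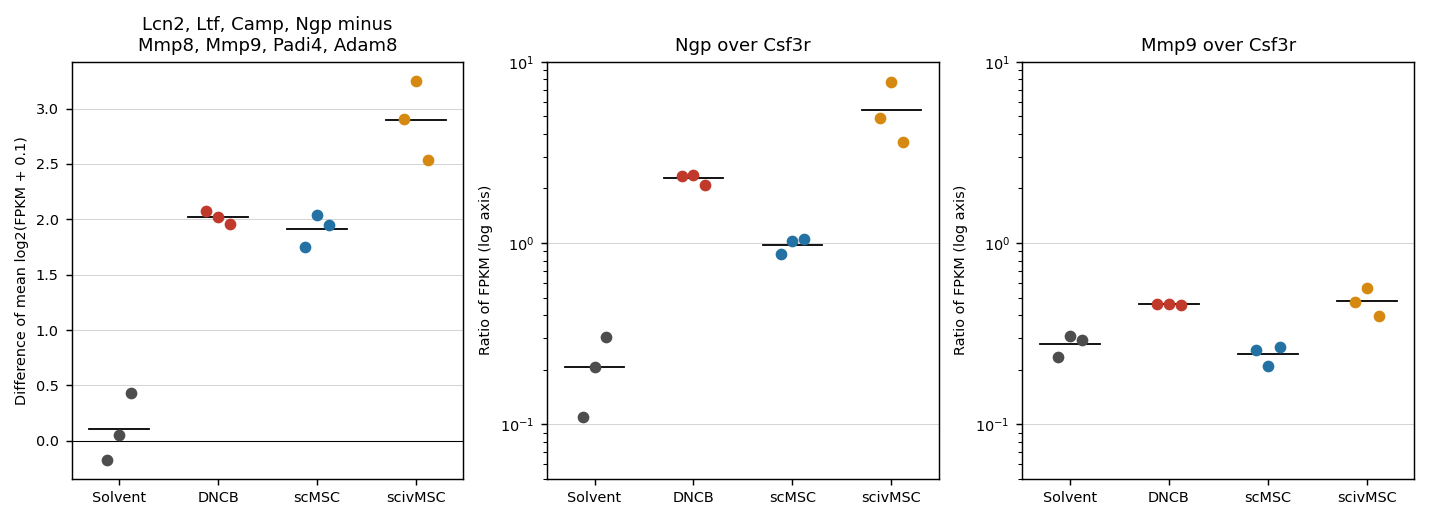
Within-library measures, with a point for each of the 12 libraries and a line at each group mean: the early genes minus Mmp8, Mmp9, Padi4 and Adam8 in mean log2(FPKM + 0.1), and the FPKM ratios of Ngp and Mmp9 to Csf3r on log axes. In scivMSC the difference is 2.54 to 3.25 and the ratio of Ngp to Csf3r 3.59 to 7.77, above all other libraries.

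Csf3r, the receptor for the neutrophil growth factor G-CSF, served as a reference transcript of mature neutrophils. Csf3r itself was at 27.1, 23.7 and 15.2 FPKM in Solvent, 172, 253 and 168 in DNCB, 35.2, 35.6 and 38 in scMSC and 15.9, 3.60 and 12.0 in scivMSC. In scivMSC its log2 change was -1.78 against scMSC (SE 0.39, adjusted p = 0.0104) and -1.07 against Solvent (SE 0.38, adjusted p = 0.0210), the most negative of the 10 other neutrophil markers in both, while Ngp was at 0.49 against scMSC, without a call, so most of the difference in their ratio between these groups lay in Csf3r on this scale. Csf3r was not alone, as 4 of the 10 markers were called lower in scivMSC against scMSC, where 30.4% of tested genes were. The others were Cxcr2 (-1.45), Fpr1 (-1.40) and Fpr2 (-1.37). Under TMM scaling the most negative of the 10 markers was at -1.0 against scMSC, none was below 0.26 against Solvent, and Ngp was called higher, at 1.30. The FPKM ratio of Ngp to Csf3r was 0.110, 0.207 and 0.304 in Solvent, 2.35, 2.38 and 2.08 in DNCB, 0.870, 1.02 and 1.05 in scMSC and 4.90, 7.77 and 3.59 in scivMSC. For Ngp the 4 groups did not overlap, and scMSC lay between Solvent and DNCB while scivMSC lay above DNCB. The ratio of Camp to Csf3r had the same order, at 0.0499, 0.0800 and 0.0895, then 0.506, 0.484 and 0.421, then 0.266, 0.257 and 0.350, and then 1.48, 2.83 and 1.09. That of Lcn2 was 0.0524, 0.0718 and 0.103 in Solvent, 0.433, 0.484 and 0.528 in DNCB, 0.166, 0.182 and 0.217 in scMSC and 0.770, 1.51 and 0.558 in scivMSC. Mmp9 differed much less, with ratios to Csf3r of 0.235, 0.306 and 0.290 in Solvent, 0.459, 0.461 and 0.454 in DNCB, 0.255, 0.211 and 0.268 in scMSC and 0.475, 0.566 and 0.394 in scivMSC. Solvent and scMSC overlapped for Mmp9, as did DNCB and scivMSC.

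Relative to the mean log2(FPKM + 0.1) of the 10 other neutrophil markers, the 10 genes also differed in their balance. Ngp stood at -1.04, -0.49 and 0.35 in Solvent, 1.97, 1.89 and 1.66 in DNCB, 1.16, 1.70 and 1.60 in scMSC and 2.96, 2.90 and 2.67 in scivMSC. Here its scMSC and DNCB libraries overlapped, unlike in the ratio to Csf3r. They overlapped too for Camp, at -0.27 ± 0.28 in scMSC and -0.43 ± 0.20 in DNCB, and Ltf, at -0.44 ± 0.42 and -0.47 ± 0.22. Lcn2 was lower in scMSC without overlap, at -0.88 ± 0.29 against -0.40 ± 0.08. Whether scMSC lay between Solvent and DNCB thus depended on the reference. Mmp8, which was set against the early genes in the first balance above, moved in part like them, with group means of -1.61 ± 0.40, -0.48 ± 0.11, -0.94 ± 0.20 and -0.33 ± 0.41 (SD, n = 3). No such order was seen for the other proteases and the lectin. Mmp9 was highest in Solvent, at 0.13 ± 0.14, with -0.47 ± 0.07, -0.51 ± 0.13 and -0.56 ± 0.22 in the others. Adam8 was lowest in DNCB, at -2.66 ± 0.16, against -1.61 ± 0.10, -1.87 ± 0.08 and -2.08 ± 0.30 in Solvent, scMSC and scivMSC. Chil3 was lowest in DNCB too, at -3.09 ± 0.40, and highest in scivMSC, at -0.89 ± 0.08. The reference here was a mean of log2 values, not the marker sum given above, most of which was S100a9 and S100a8 in DNCB. All 10 markers were called higher in DNCB than in Solvent, so the reference itself differed between groups. These balances were not tested.

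The order of the levels differed between groups, compared here per length by FPKM. In Solvent, Mmp9 was highest at 6.01 ± 1.45 FPKM (SD, n = 3), followed by Ngp at 4.16 ± 1.04, and their libraries overlapped. In DNCB, Ngp was highest at 452 ± 133 FPKM, clear of the others, and Lcn2, Camp, Ltf, Mmp8 and Mmp9 followed within 90.6 to 95.2 with overlapping libraries, then Cd177 at 44.9 ± 11.9. In scMSC, Ngp (35.6 ± 4.62) and Camp (10.6 ± 2.32) led, and in scivMSC they led as well (49.6 ± 25.5 and 15.6 ± 6.97), with no overlap between the first and second in either group. Padi4 had the lowest mean in every group, though its libraries overlapped with those of Adam8 in scivMSC. Ngp alone made up 15.3% to 26.1% of the summed FPKM of the 10 genes in the Solvent libraries, 43.3% to 46.5% in DNCB, 39.1% to 44.0% in scMSC and 47.6% to 48.1% in scivMSC. The 10 genes together took 0.0232% to 0.0375% of the FPKM outside haemoglobin in Solvent, 1.06% to 1.43% in DNCB, 0.110% to 0.151% in scMSC and 0.113% to 0.238% in scivMSC.

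Other genes of neutrophil granules and of their regulation gave a wider view. Of 33 such genes listed, 32 were in the table and 19 passed the filter, and Bpi was not analysed here. Cebpe passed only with its DNCB libraries (2.62 to 3.87 FPKM), as outside DNCB only scMSC replicate 3 reached 1, at 1.01. In DNCB against Solvent 18 of the 19 rose (15.6% of tested genes), with a median log2 fold change of 2.93. On the log2 scale Olfm4, a specific granule glycoprotein, rose by 5.47, Chil1, a chitinase-like protein, by 4.71, and Anxa1, annexin A1 of gelatinase granules, by 4.45. Cebpe, the transcription factor needed for specific granule genes, rose by 3.86, and Spi1, which encodes PU.1, by 2.93. The gene without a call was Ctsc, the protease that activates the serine proteases of primary granules, at 0.45 (adjusted p = 0.548). In scMSC against DNCB 17 of the 19 were called lower (24.9%). The others, Qsox1 at -0.93 and Srgn at -0.74, were lower by under 2-fold (edgeR adjusted p = 0.0354 and 0.0243). In scivMSC 18 were called lower (62.0%), and Srgn, at -0.85, was again under 2-fold (edgeR adjusted p = 0.00425). Under TMM scaling 17 were called lower in scMSC (12.3%) and 14 in scivMSC (18.9%), where Srgn and Qsox1 turned positive, at 0.81 (adjusted p = 0.00849, under 2-fold) and 0.28.

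**Figure D5:**
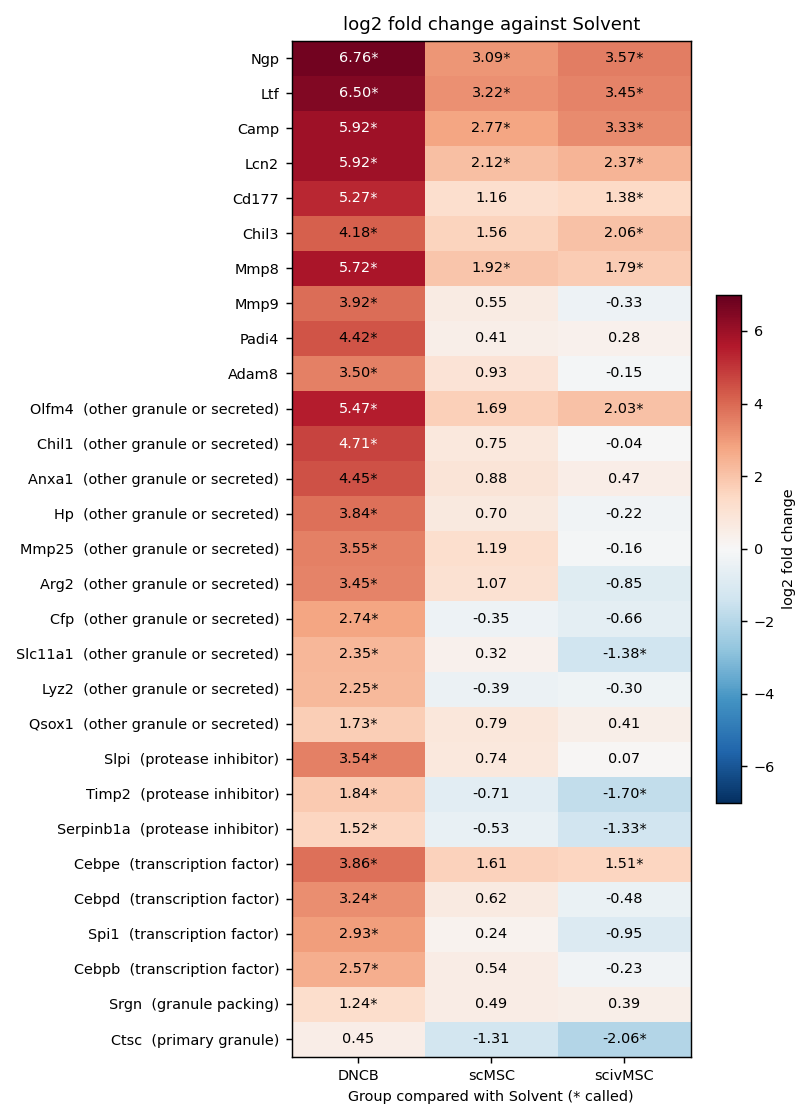
Log2 fold changes against Solvent (colour and printed value, total-count scaling, asterisk where called) in DNCB, scMSC and scivMSC (columns) for the 10 genes and the 19 other neutrophil granule genes that passed the filter (rows, the latter with their class in brackets). Of the 19, 18 were called higher in DNCB (15.6% of tested genes), 0 in scMSC (0.326%) and 2 in scivMSC (2.59%). These 2 were Olfm4 and Cebpe, and the libraries of Cebpe overlapped with Solvent.

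Against Solvent, none of the 19 was called in scMSC by edgeR, where 0.651% of tested genes were called in either direction. With so low a share, 0 calls say little about these 19 genes. Of them, 9 had an unadjusted p under 0.05, as had 28.3% of tested genes. Under TMM 12 were called higher, as were 7.29% of tested genes. In scivMSC against Solvent, 2 were called higher (2.59% of tested genes), Olfm4 at 2.03 (adjusted p = 0.000526) and Cebpe at 1.51 (adjusted p = 0.0338). Cebpe had 68, 12 and 59 counts in scivMSC and 19, 19 and 19 in Solvent. Its groups thus overlapped, with scivMSC replicate 2 at the floor of 12 counts. A further 4 were called lower, as were 59.2% of tested genes, Ctsc (-2.06), Timp2 (-1.70), the metal transporter gene Slc11a1 (-1.38) and Serpinb1a (-1.33), with the median of all tested genes at -1.47. Under TMM 11 were higher (22.4% of tested genes) and 0 lower (13.4%). In scivMSC against scMSC 5 of the 19 were called lower, no larger a share than the 30.4% of tested genes, namely Arg2 (-1.92), Slc11a1 (-1.70), the membrane protease gene Mmp25 (-1.36), Spi1 (-1.19) and Cebpd (-1.10). Under TMM 1 was lower (4.92% of tested genes) and 2 higher (13.1%). The primary granule protease and peroxidase genes, transcribed earliest, had few counts in every library. Prtn3 (proteinase 3) had 13, 8 and 11 counts in Solvent, 46, 140 and 43 in DNCB, 10, 4 and 0 in scMSC and 8, 0 and 0 in scivMSC, so that every DNCB library was above all others. Mpo (myeloperoxidase) had 0, 12 and 0 counts in Solvent, 34, 130 and 20 in DNCB, 18, 45 and 53 in scMSC and 20, 16 and 4 in scivMSC, where DNCB was above Solvent and overlapped with both MSC groups. These differences were not tested. Mpo reached at most 0.591 FPKM, Elane 0.719, Prtn3 1.24 and Ctsg 0.451, each in DNCB replicate 2, and none of them passed the filter. Elane was listed at 0 in 8 of the 12 libraries.

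The 10 genes followed each other closely across libraries. The correlation (Pearson, on standardised log2(FPKM + 1) values over the 12 libraries) of each gene with the mean of the others ran from 0.929 for Mmp9 to 0.995 for Mmp8, which describes 12 libraries that fall into 4 groups and share the DNCB rise. Among all other tested genes with a gene symbol that is not a systematic name, the 5 whose profile was most like the mean of the 10 were Ly6g (0.991), the neutrophil surface antigen used to identify these cells, Cstdc5 (0.986), Olfm4 (0.985), Zfand4 (0.984) and Retnlg (0.980). Ly6g and Retnlg are also among the 10 other neutrophil markers. Ly6g was at 0.680 ± 0.210 FPKM (SD, n = 3) in Solvent, 53.0 ± 16.4 in DNCB, 2.59 ± 0.375 in scMSC and 2.67 ± 0.984 in scivMSC.

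In the coordinates of the table, which match GRCm38, Camp (chr9:109847379-109849617, minus strand), Ngp (chr9:110419747-110423012, plus strand) and Ltf (chr9:111019271-111042767, plus strand) lie within 1.20 Mb of chromosome 9. Mmp8 is on the same chromosome at chr9:7558456-7568485. Lcn2 (chr2:32384633-32387797) and Mmp9 (chr2:164940780-164955850) are on chromosome 2, Cd177 (chr7:24743983-24760311) and Adam8 (chr7:139978932-139992562) on chromosome 7, Chil3 (chr3:106147554-106167564) on chromosome 3 and Padi4 (chr4:140745865-140774236) on chromosome 4. Adam8 overlaps Gm16201 on the opposite strand and Mir7062, and as strand use in counting is not given, their reads cannot be told apart. Chil3 has a near copy, Chil4, listed at 0 in 11 of the 12 libraries, so how reads shared by both were assigned is uncertain. No other of the 10 genes overlaps a listed gene. Between Camp and Ltf the table lists 34 other genes, of which 4 passed the filter. Nbeal2 was called higher in DNCB against Solvent (1.26, 15.6% of tested genes higher) and Als2cl lower (-1.58, 4.87% lower). None of the 4 was called in scMSC against Solvent, where 0.651% of tested genes were, so this says little about them. Against DNCB, 2 of the 4 were called lower in scMSC (24.9% of tested genes) and 2 in scivMSC (62.0%), and 3 were called lower in scivMSC against Solvent (59.2%) and 3 against scMSC (30.4%).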

How the data were processed

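Whole-blood total RNA was sequenced in 12 mice, 1 library each, and groups were taken from the labels. The labels give no batch or date. The authors deposited 1 table that gives, per gene and library, an estimated count and an FPKM. The submitters' processing notes list Bowtie 0.12.2, HISAT2 2.0, StringTie 1.3.0 and build mm8, without roles. The starts of 94.7% of 21414 genes matched by symbol lay within 5000 bases of RefSeq GRCm38.p6, so the coordinates are not those of mm8. The counting tool, annotation and use of strand are not given in the sources used here. The deposited counts were treated as estimated counts, since 29.0% of values from 1 to 12 were 4, 16.0% were 8 and 9.75% were 12. A fragment is then about 4 counts, and the floor was set at 12 counts. Floors cover counting error only. The deposited FPKM values deviated from the counts by at most 0.0605 (log2) per gene and library over 2320 genes.

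Genes with an FPKM of 1 or more in 3 or more libraries were tested by edgeR 4.0.16 (R 4.3.3) quasi-likelihood fits of all 12 libraries, scaled by total counts as the FPKM values are, with 6 contrasts and an F test over the 4 groups. Calls needed a Benjamini-Hochberg adjusted p over all tested genes under 0.05 and over 2-fold change. Each standard error is the fitted log2 change over the root of its F statistic. Alternatives were TMM scaling, DESeq2 1.42.0, limma 3.58.1 on log2(FPKM + 1) and log2(FPKM + 0.1), other filters, haemoglobin left out, counts divided by 4, only the groups compared, a replicate block, and each library left out. Exact permutation of 3 against 3 cannot go below p = 0.1, so none was used. All members, the other genes and the marker lists were chosen with earlier results of these data known. All 10 members are named, and other genes by role or by call. Ratios and balances were computed within libraries from FPKM. RefSeq gene tables (GRCm38.p6) gave positions only.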

Additional observations from a re-analysis of the deposited data

How the results depend on the processing

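The 10 genes were called in DNCB against Solvent, and in scMSC against DNCB, under every alternative that tested them. A filter at a mean FPKM of 5 removed Padi4 and left 9 tested, of which 9, 9 and 9 were called in these and in scivMSC against DNCB. Leaving out any library gave 10 to 10 calls in these, in scivMSC against DNCB and in the F test, and 7 to 7 in scivMSC against Solvent. In scivMSC against DNCB, TMM and DESeq2 left 9, without Chil3. In scivMSC against Solvent, 7 calls became 9 under TMM and DESeq2 and 6 with limma on log2(FPKM + 1), without Cd177. In scMSC against Solvent, 5 calls became 9 under TMM scaling and 9 with DESeq2, and 3 to 7 when a library was left out, the lowest without Solvent replicate 1 and the highest, with Chil3 and Cd177, without scivMSC replicate 1 or 2. Those 7 were also called with haemoglobin left out and with only the 2 groups compared. In scivMSC against scMSC, 0 calls became 6 (higher) under TMM and 6 with DESeq2, 2 (lower) with limma on log2(FPKM + 0.1), 1 (lower) with counts divided by 4, and 0 to 2 when a library was left out, the highest (lower) without scivMSC replicate 1. Signs reversed in scivMSC against scMSC for Mmp8 (TMM 0.61, DESeq2 0.63) and Padi4 (TMM 0.73, DESeq2 0.75, haemoglobin left out 0.038), and leaving out a library gave -0.91 to 0.25 for Mmp8, -0.44 to 0.25 for Padi4, -0.17 to 0.47 for Lcn2, -0.34 to 0.55 for Ltf and -0.10 to 0.48 for Cd177, the last 3 negative without scivMSC replicate 1. They reversed in scivMSC against Solvent for Mmp9 (TMM 0.98, DESeq2 1.00) and Adam8 (TMM 1.18, DESeq2 1.20, haemoglobin left out 0.18), and leaving out a library gave -0.83 to 0.033 for Mmp9, -0.50 to 0.24 for Adam8 and -0.031 to 0.66 for Padi4. The cause was not tested. Over all tested genes, calls in either direction moved more. In scMSC against Solvent 36 became 470 under TMM, 555 with DESeq2, 211 and 56 with limma (pseudocounts 1 and 0.1), 396 with haemoglobin left out, 62 with counts divided by 4, 1149 with only the 2 groups compared, 11 with a replicate block, and 4 (without Solvent replicate 1, scMSC replicate 2 or scMSC replicate 3) to 824 (without scivMSC replicate 2) when a library was left out. In scivMSC against scMSC 1701 became 994 under TMM, 1091 with DESeq2, 335 with limma (pseudocount 1), 4 with only the 2 groups compared, and 512 (without scMSC replicate 1) to 2944 (without scivMSC replicate 1). With limma at pseudocount 0.1 it was 1963, of which 1944 were lower. Counts divided by 4 gave 1779, of which 1757 were lower. In scMSC against DNCB 1445 became 813 without DNCB replicate 2 and 842 without scMSC replicate 2. In scivMSC against DNCB 3506 became 2180 under TMM, 2232 with DESeq2 and 2005 with limma (pseudocount 1), and against Solvent 3415 became 1981, 2028 and 1767. Without the filter, scMSC against Solvent had 104 calls, while scivMSC had 5952 against DNCB and 7373 against Solvent. At a mean FPKM of 5, which leaves 1095 genes to test, these 3 counts were 55, 532 and 485. Groups share replicate numbers 1 to 3. Same-numbered libraries deviated together in 3 of 18 pairs (correlation over 0.1, range -0.200 to 0.173), while 8 of 12 libraries correlated best with their own number. Whether the numbers mark pairs was not tested. With a replicate block, the calls were 10, 10 and 10 for DNCB against Solvent, scMSC against DNCB and scivMSC against DNCB, 0 for scivMSC against scMSC, 7 for scivMSC against Solvent and 4 for scMSC against Solvent, Mmp8 being lost (adjusted p = 0.0646). Groups of 3 limit all of these values, and the lowest gene, Padi4, rested on as few as 50 counts.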

Other observations

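The spread of the 10 genes between libraries of a group depended on the scaling. Under total-count scaling the coefficient of variation of FPKM over the 3 libraries had a median over the 10 genes of 52.3% in scivMSC, 28.8% in DNCB, 22.2% in Solvent and 20.0% in scMSC. With FPKM divided by the TMM factors it was 17.4%, 11.9%, 33.1% and 20.8%. It was smaller under TMM for 10 of 10 genes in scivMSC and in DNCB, for 5 in scMSC and for 2 in Solvent.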
